A study of Mus musculus with 18 samples.

Results

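The 8 genes followed here through 6 culture conditions of mouse alveolar type 2 cells had much more RNA after 48 h without the Wnt pathway activator CHIR99201. They are Sec14l3, Mme, Rasl11b, Tuba8, Slc4a5, Itm2a, Cyp4v3 and Crebrf, 8 of the 52636 genes in the count tables, and all 8 passed the filter on low counts. They were picked by their own rise. Sec14l3, Mme, Rasl11b, Tuba8 and Slc4a5 came from the contrast of 48 h withdrawal with CHIR99201. Itm2a, Cyp4v3 and Crebrf came from the contrast of 48 h with 24 h withdrawal. The size of those rises is therefore given as a description without a test. Tests are kept for contrasts that share no library with the contrast a gene came from.

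Gene expression was measured by RNA sequencing of total RNA from cultured mouse lung cells that the labels name alveolar type 2, with 3 libraries per group and 18 in all. The porcupine inhibitor LGK974, which blocks the release of Wnt ligands by the cells themselves, was present in every group. The groups were a Fzd5 agonist, a Fzd6 agonist and Wnt, each with LGK974, and then LGK974 with CHIR99201 (control, called CHIR below), LGK974 with CHIR99201 withdrawn for 24 h, and the same for 48 h. The labels give a treatment time of 8 to 12 h and a culture of 19 days with CHIR99201. They do not say how long the cells given a ligand had been without CHIR99201, nor give strain, age, sex or dose. Nor is it stated if replicate libraries derive from different animals or dishes. The p-values below therefore reflect library-to-library spread, possibly of technical origin.

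Canonical Wnt signalling runs from Wnt ligands through Frizzled receptors and LRP co-receptors to the inhibition of the kinase GSK3, which otherwise marks β-catenin for destruction. Compounds of the CHIR type inhibit GSK3 directly and so activate the pathway below the receptor, whereas a Frizzled agonist acts at a chosen receptor. In the alveolus, Wnt signalling is known to help keep type 2 cells, which make surfactant, from turning into the thin type 1 cells that form the gas exchange surface.

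The libraries held 31509607 to 52030066 counts, so that 3 counts, the limit that a count of 0 allows, corresponded to 0.0577 to 0.0952 CPM (counts scaled to a common library size), for counting error only. Sftpc, which encodes surfactant protein C and defines type 2 cells, stood between 36668 and 144814 CPM. Of 8 mesenchymal and 6 endothelial markers, at most 4 and 3 had a count in a library, with sums of 0 to 0.903 and 0 to 0.466 CPM, and the endothelial gene Cdh5 and the fibroblast gene Col3a1 had 0 counts in all 18. The 7 haematopoietic markers summed to 233 to 6164 CPM, of which the lysozyme gene Lyz1 made up 219 to 6154 CPM, while the pan-leukocyte gene Ptprc was at 0 to 0.0729 CPM. The 5 basal cell markers summed to 20.3 CPM in FZD6 agonist 1, 13.1 CPM in CHIR 3 and at most 0.334 CPM elsewhere. Cdh5, Col3a1, Lyz1 and Ptprc were named after their values were seen. In these bulk libraries, fewer cells of a type and less RNA per cell cannot be told apart. CHIR 1, CHIR 3, FZD6 agonist 1 and 24 h withdrawal 2 stood apart, with a median correlation with the other libraries of 0.782 to 0.950, against 0.966 to 0.982 in the other 14. Xist, the RNA of the silenced X chromosome, was at 0 to 0.141 CPM in CHIR 3, FZD6 agonist 1 and 24 h withdrawal 2, and at 6.36 to 22.2 CPM in the other 15 libraries. Club cell secretory Scgb1a1 was at 38.6 to 79.8 CPM in those same 3 libraries and at 0.0882 to 0.947 CPM elsewhere. The sum of 10 mitochondrially encoded genes was 42588 CPM in 24 h withdrawal 2, against 2684 to 6637 CPM in the other 17 libraries, and 16846 genes had a count there, against 19224 or more. The main tests are over all 18 libraries, with counts over the other 14 beside them. The 4 were picked out from these same data. Leaving out the libraries that differ most can itself narrow the estimated spread, so p-values over 14 libraries carry that limit. The 14 hold 1 CHIR library (CHIR 2) and 2 libraries each of the FZD6 agonist and 24 h withdrawal, so that any comparison with CHIR over 14 assumes that this lone library varies like those of the other groups.

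The stretches upstream of 3 members are shown because they hold the motif letters that were found in the set. Promoter windows from RefSeq on GRCm38.p6, 250 bases before to 50 bases after each start, matched all 8 members, with 3 windows for Mme and 1 for each of the others. The 5 motifs searched on both strands were chosen after the windows had been seen. They were the TCF/LEF core CTTTGA, the E-box CACGTG, the FOXO motif GTAAACA, the D-box TTATGTAA and the cAMP response element TGACGTCA. Capitals mark the motif in each sequence, which runs 5′ to 3′ on the plus strand.
Sec14l3 chr11:4064603-4064902: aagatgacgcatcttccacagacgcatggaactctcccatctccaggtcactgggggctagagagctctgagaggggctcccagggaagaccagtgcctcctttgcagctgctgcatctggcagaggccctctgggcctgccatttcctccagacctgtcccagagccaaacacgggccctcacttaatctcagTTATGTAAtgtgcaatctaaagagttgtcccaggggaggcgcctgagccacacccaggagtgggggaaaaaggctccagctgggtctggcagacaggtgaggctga
Mme chr3:63294961-63295260: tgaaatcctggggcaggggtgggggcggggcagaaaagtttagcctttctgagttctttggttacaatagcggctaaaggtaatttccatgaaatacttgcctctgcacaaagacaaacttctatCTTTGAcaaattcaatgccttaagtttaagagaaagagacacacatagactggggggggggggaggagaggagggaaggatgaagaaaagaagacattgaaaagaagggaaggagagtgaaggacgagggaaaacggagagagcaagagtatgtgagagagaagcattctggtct
Crebrf chr17:26715400-26715699: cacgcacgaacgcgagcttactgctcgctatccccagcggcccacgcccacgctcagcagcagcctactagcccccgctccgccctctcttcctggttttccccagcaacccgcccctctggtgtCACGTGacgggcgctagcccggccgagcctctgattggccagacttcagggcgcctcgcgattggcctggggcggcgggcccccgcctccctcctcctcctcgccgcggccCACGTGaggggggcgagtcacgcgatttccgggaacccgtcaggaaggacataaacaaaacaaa
The D-box, bound by PAR bZIP factors, began 56 bases upstream of the Sec14l3 start, and 0.938% of the 32851 windows of all genes held one. The TCF/LEF core, the core of the site bound by the nuclear partners of β-catenin, began 125 bases upstream of this Mme start, and 16.003% of all windows held one. The E-box began 125 and 14 bases upstream of the Crebrf start. It also occurred in Cyp4v3, 171 bases upstream, and in Tuba8, 207 bases upstream, and 7.15% of all windows held one. Neither the FOXO motif nor the cAMP response element was in a member window, against 3.65% and 1.79% of all windows. The median GC content was 63.2% over the 10 member windows, against 52.7% over all windows. No motif of the 5 was in more than 3 of the 8 members.

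Sec14l3 encodes a SEC14-like protein with a lipid-binding CRAL-TRIO domain (ENSMUSG00000054986, chromosome 11, 4064841 to 4077736, plus strand, GRCm38). In CHIR it stood at 0.711, 0.970 and 2.89 CPM, then at 3.03, 9.86 and 4.92 CPM after 24 h of withdrawal, and at 78.2, 127 and 65.5 CPM after 48 h. No library of one time reached into the next, and most of the gain lay between 24 h and 48 h. The log2 difference was 1.95 ± 0.82 (SE) for 24 h against CHIR, 3.93 ± 0.87 for 48 h against 24 h and 5.88 ± 0.96 for 48 h against CHIR. With ligands it was at 122, 23.7 and 22.3 CPM under the FZD5 agonist, at 3.73, 38.7 and 29.2 CPM under the FZD6 agonist and at 68.3, 51.2 and 68.6 CPM under WNT. All 9 ligand libraries lay above the CHIR libraries, and a single library set most of the spread in each agonist group.

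Mme encodes neprilysin, a cell surface zinc peptidase that cleaves small signalling peptides (ENSMUSG00000027820, chromosome 3, 63241537 to 63386030, plus strand). It was among the scarcest of the 8, at 0.246, 0.617 and 0.258 CPM in CHIR, 0.891, 0.282 and 1.86 CPM at 24 h and 14.1, 7.95 and 12.0 CPM at 48 h. The 24 h libraries overlapped CHIR, and the 48 h libraries lay above both. Mme split the ligands. It was at 5.78, 2.54 and 2.50 CPM under the FZD5 agonist, at 0, 1.73 and 1.54 CPM under the FZD6 agonist and at 7.58, 13.9 and 15.04 CPM under WNT. The 3 ligand groups did not overlap one another, and the 0 in FZD6 agonist 1 allows up to 0.0776 CPM.

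Rasl11b encodes a small GTPase of the Ras-like family (ENSMUSG00000049907, chromosome 5, 74195286 to 74199481, plus strand). It was at 0.465, 1.81 and 1.15 CPM in CHIR, 6.09, 6.24 and 7.93 CPM at 24 h and 21.0, 50.7 and 19.1 CPM at 48 h. Its log2 difference for 24 h against CHIR was 2.55 ± 0.85 (SE) over 18 libraries. Under the FZD5 agonist it was at 56.9, 10.9 and 14.96 CPM, under the FZD6 agonist at 1.01, 18.5 and 17.2 CPM and under WNT at 20.8, 13.2 and 15.3 CPM, so that the ligand groups overlapped.

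Slc4a5 encodes a sodium bicarbonate cotransporter (ENSMUSG00000068323, chromosome 6, 83219828 to 83304945, plus strand). It was at 0.547, 1.06 and 0.752 CPM in CHIR, 2.87, 2.61 and 3.11 CPM at 24 h and 9.16, 12.6 and 6.22 CPM at 48 h. Its libraries followed those of Rasl11b closely, with a Pearson correlation of 0.991 in log2 CPM over the 18 libraries. With the FZD5 agonist it was at 15.3, 4.28 and 5.45 CPM, under the FZD6 agonist at 0.828, 5.51 and 4.84 CPM and under WNT at 7.06, 6.24 and 5.65 CPM.

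Tuba8 encodes an α-tubulin, a subunit of microtubules (ENSMUSG00000030137, chromosome 6, 121210696 to 121226854, plus strand). The antisense gene Gm15856 overlaps it, and since the use of strand in counting is not given, reads of the pair cannot be told apart, though Gm15856 itself had at most 13 counts in a library. Tuba8 was at 1.12, 0.353 and 0.728 CPM in CHIR, 2.59, 5.99 and 2.57 CPM at 24 h and 11.7, 16.8 and 11.6 CPM at 48 h. Its steps were of like size, 2.34 ± 0.51 log2 (SE) for 24 h against CHIR and 1.85 ± 0.49 for 48 h against 24 h. With the FZD5 agonist it was at 14.4, 4.56 and 6.99 CPM, under the FZD6 agonist at 3.96, 7.36 and 6.20 CPM and under WNT at 12.0, 8.50 and 10.9 CPM.

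Itm2a encodes a membrane protein with a BRICHOS domain, a fold that it shares with pro-surfactant protein C (ENSMUSG00000031239, chromosome X, 107397099 to 107403376, minus strand). It was abundant in CHIR already, at 65.9, 35.4 and 84.1 CPM, then at 52.3, 20.4 and 46.7 CPM at 24 h and 187, 174 and 171 CPM at 48 h. The 24 h libraries overlapped CHIR, with a log2 difference of -0.63 ± 0.31 (SE) over 18 libraries. Over 14 it turned to 0.50 ± 0.14, where CHIR is CHIR 2 alone, the library with the lowest Itm2a of the 3. The 48 h libraries were tight and lay above all others at earlier times. Under the FZD5 agonist it was at 71.7, 66.0 and 89.5 CPM, under the FZD6 agonist at 71.2, 72.7 and 76.1 CPM and under WNT at 170, 188 and 177 CPM. The WNT libraries overlapped those of 48 h withdrawal, and both agonist groups overlapped CHIR.

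Cyp4v3 encodes a cytochrome P450 of the CYP4 family, whose members hydroxylate fatty acids (ENSMUSG00000079057, chromosome 8, 45304944 to 45333216, minus strand). Gm45753 overlaps it on the same strand and was listed with 0 counts throughout. Cyp4v3 was at 19.2, 17.8 and 33.1 CPM in CHIR, 32.8, 20.4 and 28.3 CPM at 24 h and 89.4, 88.6 and 83.7 CPM at 48 h. As with Itm2a, the 24 h libraries overlapped CHIR. With the FZD5 agonist it was at 43.0, 32.1 and 40.1 CPM, under the FZD6 agonist at 45.6, 35.6 and 37.1 CPM and under WNT at 90.2, 77.8 and 78.3 CPM. WNT again overlapped 48 h withdrawal, and all 6 agonist libraries lay below both.

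Crebrf encodes a regulator of the transcription factor CREB3 that promotes its breakdown (ENSMUSG00000048249, chromosome 17, 26715650 to 26776635, plus strand). It was at 7.03, 5.89 and 10.7 CPM in CHIR, 12.2, 9.93 and 11.2 CPM at 24 h and 33.4, 35.0 and 28.2 CPM at 48 h. Under the FZD5 agonist it was at 39.0, 28.6 and 29.4 CPM, under the FZD6 agonist at 23.8, 28.0 and 31.0 CPM and under WNT at 21.3, 27.1 and 23.8 CPM. Crebrf was the 1 member of the 8 whose mean was lower under WNT than under either agonist.

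**Figure D1:**
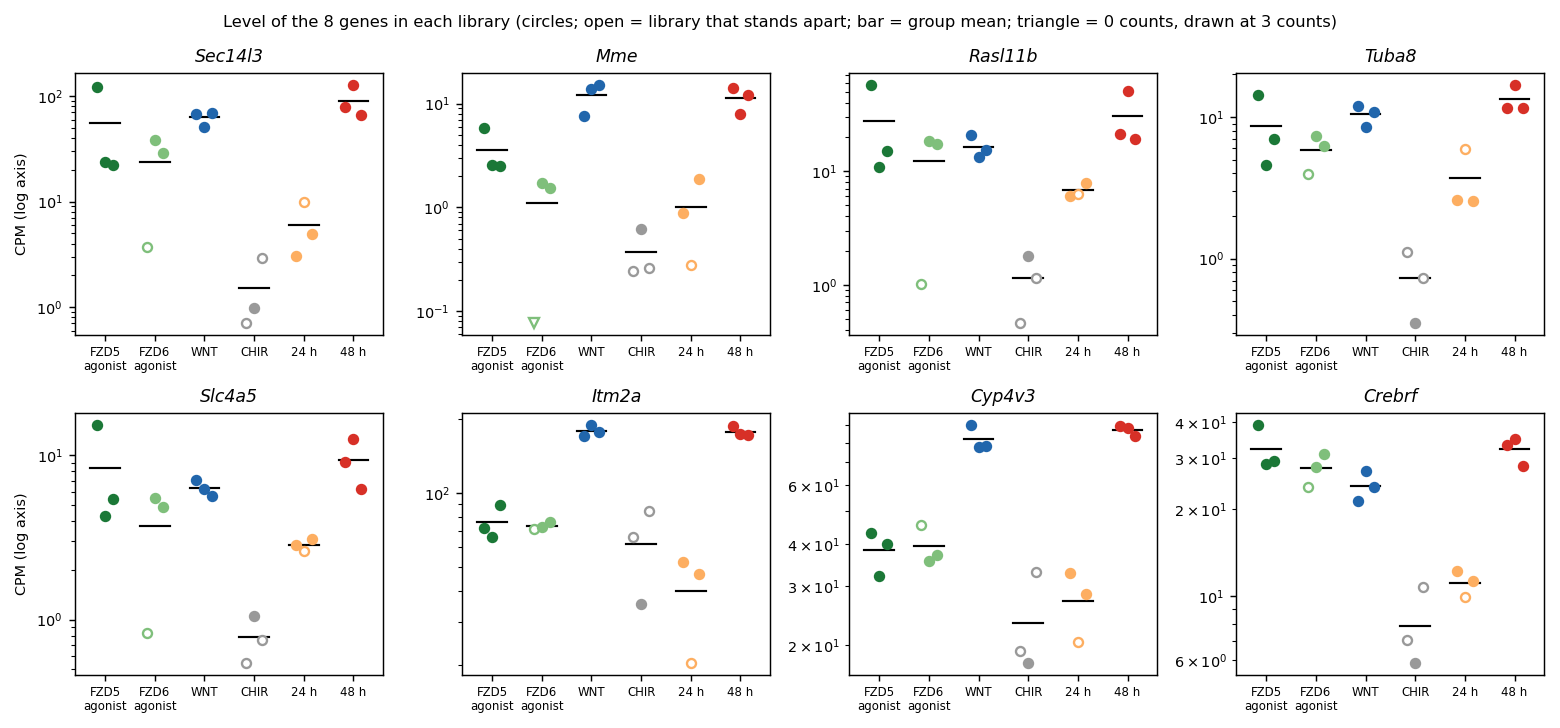
Level of each of the 8 genes (CPM on a log axis) in every library, with points for libraries and a line for the group mean, for the FZD5 agonist, the FZD6 agonist, WNT, CHIR, 24 h and 48 h withdrawal (n = 3 each). Itm2a at 170 to 188 CPM and Cyp4v3 at 77.8 to 90.2 CPM under WNT sit beside 48 h withdrawal, while Sec14l3 under the FZD5 agonist spreads between 22.3 and 122 CPM.

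The 5 genes chosen for their rise over CHIR were scarce in CHIR, which that choice favours. The 3 chosen against 24 h withdrawal were not scarce there. For the 5, the percentages in CHIR restate the rise that chose them. Mean levels in CHIR, as a percentage of the mean at 48 h, were 1.69% for Sec14l3, 3.29% for Mme, 3.77% for Rasl11b, 5.49% for Tuba8 and 8.41% for Slc4a5, and 34.9% for Itm2a, 26.8% for Cyp4v3 and 24.5% for Crebrf. At 24 h the percentages were 6.58% for Sec14l3 and 8.89% for Mme. They were 22.3% for Rasl11b, 27.8% for Tuba8 and 30.7% for Slc4a5, which had covered more of the way by 24 h. Per kilobase of gene width, the mean level at 48 h was highest for Itm2a at 102 CPM per kilobase, followed by Sec14l3 at 33.6, Cyp4v3 at 22.9 and Rasl11b at 16.7. The lowest were Tuba8 at 5.91, Crebrf at 3.90, Slc4a5 at 1.70 and Mme at 1.32 CPM per kilobase. By the ranking that chose them, Slc4a5, the last inside at 3.56 log2 above CHIR, stood next to Phactr1 at 3.54, and Fam19a4 at 3.95 ranked above it without being a member. In the contrast of 48 h with 24 h, Crebrf was the last inside at 1.53, and Itih4 at 3.24 and Chil1 at 1.61 ranked among them without being members. Over all genes, 2.59% were called for 48 h against CHIR (1.1% higher and 1.49% lower) and 0.0485% for 48 h against 24 h, and nothing is read from the members in these contrasts.

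The ligands were compared with one another in contrasts that did not rank the members. The ranking also asked for an average log2 CPM of at least 2 over all 18 libraries, those with ligands included. Mme at 2.32 and Slc4a5 at 2.40 lay nearest to that limit, so their levels under the ligands may have helped them to pass. Their ligand tests are therefore not fully free of the choice. In edgeR's quasi-likelihood test over all 18 libraries, with Benjamini-Hochberg adjustment over 16497 genes and a threshold of 0.05, none of the 8 members was called in any of the 3 ligand pairs, where 0% of all genes were called. At an unadjusted p under 0.05 the same test had 413 genes (2.5%) for the FZD5 agonist against WNT. It had 606 (3.67%) for the FZD6 agonist against WNT and 164 (0.994%) for the FZD5 against the FZD6 agonist. With no difference between groups, a share of 0.05 of the genes would fall under that limit, and all 3 shares were smaller. Without the 4 libraries that stood apart, the same test called 16.7% of 17433 genes for the FZD5 agonist against WNT, 11.8% for the FZD6 agonist against WNT and 0.00574% between the agonists. DESeq2 over 18 libraries called 0.179%, 0.325% and 0% of genes in these 3 pairs. A fit of the compared groups alone called 13.1% of genes for the FZD5 agonist against WNT, Mme, Itm2a and Cyp4v3 among them, and 0.0592% for the FZD6 agonist against WNT, with Itm2a the 1 member called.

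Itm2a had lower means under both agonists than under WNT. It averaged 75.7 ± 12.3 CPM under the FZD5 agonist and 178 ± 9.33 CPM under WNT (SD, n = 3 each), with a log2 difference of -1.23 ± 0.32 (SE) and an adjusted p of 0.833 by edgeR over 18 libraries. Over 14 libraries the difference was -1.24 ± 0.09 and the adjusted p 9.36e-07. Under the FZD6 agonist it averaged 73.3 ± 2.49 CPM, with a log2 difference from WNT of -1.28 ± 0.32 and an adjusted p of 0.474 by edgeR over 18 libraries, and of -1.27 ± 0.11 and 4.75e-06 over 14. The 3 libraries of each agonist lay below all 3 WNT libraries.

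Cyp4v3 had the same pattern. It averaged 38.4 ± 5.63 CPM under the FZD5 agonist and 82.1 ± 7.07 CPM under WNT (SD, n = 3 each), with a log2 difference of -1.10 ± 0.24 (SE) and an edgeR adjusted p of 0.759 over 18 libraries, against -1.10 ± 0.10 and 6.88e-06 over 14. Under the FZD6 agonist it averaged 39.4 ± 5.38 CPM, with a log2 difference from WNT of -1.06 ± 0.24 and an edgeR adjusted p of 0.457 over 18 libraries, against -1.18 ± 0.12 and 1.90e-05 over 14. DESeq2 over 18 libraries called Cyp4v3 in both pairs, with adjusted p of 0.0161 and 0.0126.

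Mme also had lower means under the agonists. It averaged 3.61 ± 1.89 CPM under the FZD5 agonist and 12.2 ± 4.01 CPM under WNT (SD, n = 3 each), with a log2 difference of -1.75 ± 0.90 (SE) and an edgeR adjusted p of 1 over 18 libraries, against -1.77 ± 0.39 and 0.0118 over 14. Under the FZD6 agonist it averaged 1.09 ± 0.951 CPM, with a log2 difference from WNT of -3.47 ± 0.96 and an edgeR adjusted p of 0.623 over 18 libraries, against -2.90 ± 0.50 and 0.00391 over 14. DESeq2 over 18 libraries called Mme against WNT for the FZD6 agonist with an adjusted p of 0.0221, and Itm2a in the same pair with 0.0386.

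Crebrf went the other way for the FZD5 agonist. It averaged 32.3 ± 5.78 CPM under the FZD5 agonist and 24.1 ± 2.93 CPM under WNT (SD, n = 3 each), a log2 difference of 0.42 ± 0.23 (SE) with an edgeR adjusted p of 1 over 18 libraries, and of 0.42 ± 0.13 with 0.0347 over 14. For the FZD6 agonist against WNT the difference was 0.20 ± 0.23 and was called in neither fit. The 6 libraries of the FZD5 agonist and WNT are the same in both fits, so that the size of the differences between them hardly moved, and it was the estimated spread that did.

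Sec14l3, Rasl11b, Tuba8 and Slc4a5 were not called between any ligand pair in either fit. For the FZD5 agonist against WNT the log2 differences were -0.16 for Sec14l3 (95% interval -1.80 to 1.47), 0.75 for Rasl11b (-0.93 to 2.43), -0.28 for Tuba8 (-1.28 to 0.72) and 0.40 for Slc4a5 (-0.80 to 1.60), over 18 libraries. These intervals leave room for differences of either sign. Without FZD5 agonist 1, Rasl11b turned to -0.36 and Slc4a5 to -0.39. For the FZD6 agonist against WNT the log2 differences were -1.39 for Sec14l3 (-3.06 to 0.27), -0.42 for Rasl11b (-2.10 to 1.25), -0.84 for Tuba8 (-1.85 to 0.17) and -0.76 for Slc4a5 (-1.97 to 0.45). Without FZD6 agonist 1, Rasl11b turned to 0.12.

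Between the agonists, no member was called in either fit or by DESeq2. The log2 difference, FZD5 minus FZD6 agonist, was 0.05 for Itm2a (95% interval -0.62 to 0.71), -0.04 for Cyp4v3 (-0.54 to 0.47) and 0.23 for Crebrf (-0.26 to 0.71), over 18 libraries. For Mme it was 1.71 (-0.22 to 3.65), and the 3 FZD5 agonist libraries lay above the 3 FZD6 agonist libraries, as they did for 4.95% of all genes. For Sec14l3, Rasl11b and Slc4a5 the estimates lay between 1.16 and 1.23 with intervals that included 0. These misses do not show that the agonists acted alike on these genes.

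By count of groups that did not overlap, Mme, Itm2a and Cyp4v3 lay lower under the FZD5 agonist than under WNT (3 of 8, against 15.6% of all genes), and Crebrf lay higher (1 of 8, against 17.2%). Under the FZD6 agonist, 6 of the 8 lay below WNT, against 11.5% of all genes. Those 6 were Sec14l3, Mme, Tuba8, Slc4a5, Itm2a and Cyp4v3.

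**Figure D2:**
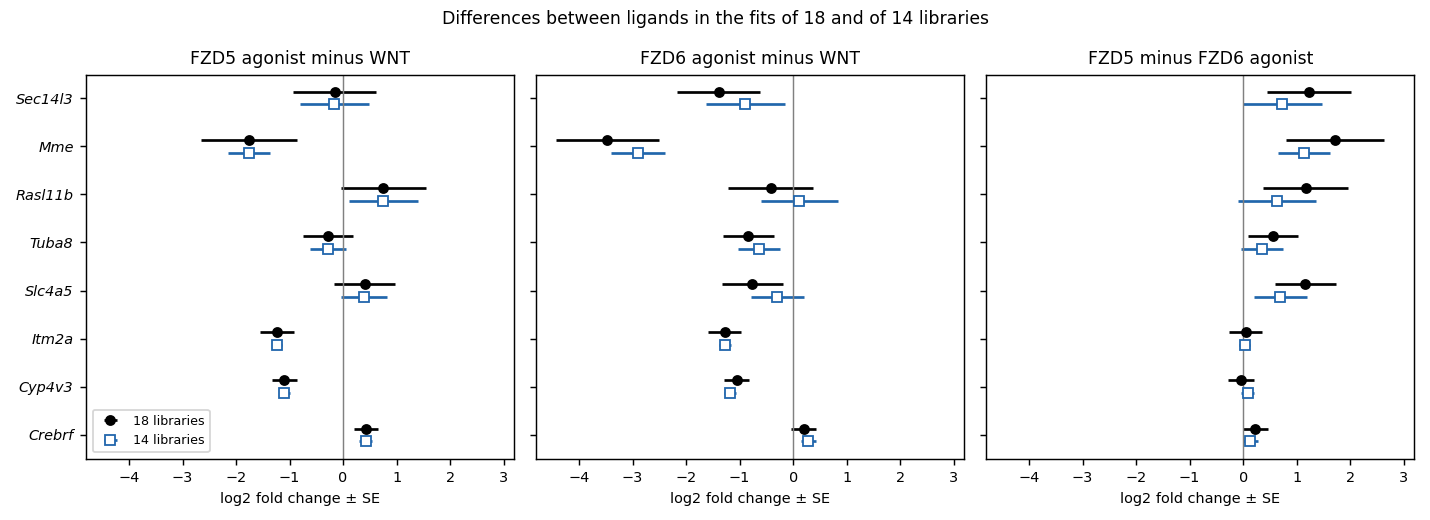
Log2 difference between ligand groups for each of the 8 genes, with bars of ± 1 SE, over all 18 libraries and over the 14 that did not stand apart. Itm2a and Cyp4v3 lie between -1.06 and -1.28 against WNT for both agonists in either fit, with shorter bars over 14 libraries. Between the agonists they lie at 0.05 and -0.04 over 18 libraries.

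Set against 24 h withdrawal, only the 5 genes ranked in a contrast without the 24 h libraries can be tested. The limit on the average over all 18 libraries applies to Mme and Slc4a5 here too. In edgeR over 18 libraries none of the 5 was called under any ligand. Over all genes, 0.0303% were called for WNT, 0.00606% for the FZD5 agonist and 0% for the FZD6 agonist. At an unadjusted p under 0.05 the last comparison had 2517 genes, or 15.3%. For WNT the log2 difference was 3.40 ± 0.85 (SE) for Sec14l3 and 3.57 ± 0.97 for Mme, both with an adjusted p of 0.216 by edgeR. Over 14 libraries edgeR called Sec14l3 (3.998 ± 0.91, adjusted p 0.0225), Mme (3.16 ± 0.51, adjusted p 0.00263) and Tuba8 (2.04 ± 0.44, adjusted p 0.0117), where 13.6% of all genes were called. DESeq2 over 18 libraries called Sec14l3 (adjusted p 0.00301) and Mme (adjusted p 0.00669) for WNT, Sec14l3 for the FZD5 agonist (adjusted p 0.0182) and none of the 5 for the FZD6 agonist, with 2.16%, 0.867% and 1.35% of all genes called. Under the FZD5 agonist the same 5 genes lay 1.22 to 3.24 log2 above 24 h withdrawal with edgeR adjusted p of 0.214 to 0.316 over 18 libraries, and none was called over 14, where 4.23% of all genes were. Under the FZD6 agonist they lay 0.11 to 2.01 above, none was called over 14 libraries, where 0.677% of all genes were, and Mme, at 0.11, turned to -0.32 without 24 h withdrawal 2. Of these 5 genes, 4 lay above 24 h withdrawal without overlap under the FZD5 agonist (all but Tuba8), against 9.75% of all genes. Tuba8 overlapped only through 24 h withdrawal 2, at 5.99 CPM, a library that stood apart. Under the FZD6 agonist 0 of 5 lay above without overlap, against 6.66% of all genes. Under WNT all 5 did, against 11.1% of all genes. Without FZD6 agonist 1, a setting chosen after the data were seen, 4 of 5 did under the FZD6 agonist. The share over all genes was not computed for that setting, and fewer libraries overlap less readily. Nothing is read from that count.

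Relative to 48 h withdrawal, the ligand groups are given as levels without a test, because the 48 h libraries chose the members. In the WNT group the means were 94.1% of the 48 h mean for Cyp4v3, 101% for Itm2a and 107% for Mme, and 54.2% to 78.2% for the other 5. In the FZD5 agonist group they were 42.8% for Itm2a, 44.0% for Cyp4v3 and 31.8% for Mme. They were 62.2% for Sec14l3, 64.6% for Tuba8, 89.4% for Slc4a5, 91.2% for Rasl11b and 100.3% for Crebrf. In the FZD6 agonist group they were 85.7% for Crebrf, 26.4% to 45.2% for Sec14l3, Rasl11b, Tuba8, Slc4a5, Itm2a and Cyp4v3, and 9.62% for Mme. In the order of the 6 group means, WNT and 48 h withdrawal were neighbours at the top for Sec14l3, Mme, Tuba8, Itm2a and Cyp4v3. Their libraries overlapped in each. Over all genes, edgeR called 0 of 16497 for WNT against 48 h withdrawal over 18 libraries and 0 of 17433 over 14. Without overlap, 7.42% of all genes lay higher under WNT and 8.8% lower. The nearness of WNT to 48 h withdrawal was therefore not particular to these members. For Mme, Itm2a and Cyp4v3 the gap from this pair down to the next group was wider than the 2 groups' SDs together. CHIR was lowest for all members but Itm2a, for which 24 h withdrawal was lowest and overlapped CHIR.

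**Figure D3:**
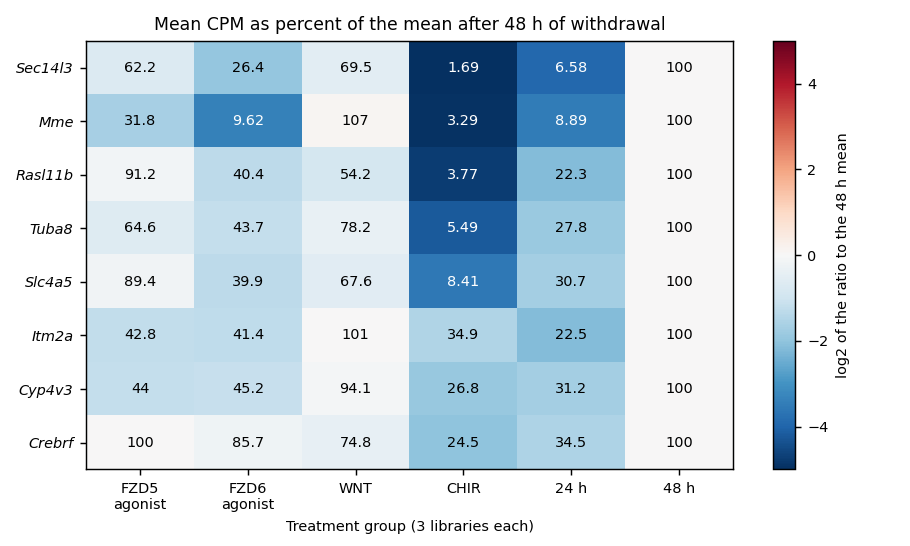
Mean level of each of the 8 genes in each group as a percentage of its mean after 48 h of withdrawal (n = 3 libraries per group), in the order FZD5 agonist, FZD6 agonist, WNT, CHIR, 24 h and 48 h withdrawal. Mme, Itm2a and Cyp4v3 reach 94.1% to 107% under WNT and 9.62% to 45.2% under the agonists, and Crebrf reaches 74.8% to 100.3% under all 3 ligands.

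Some libraries stood out within their group in several members at once. FZD5 agonist 1 was the highest library of its group in all members but Itm2a. The library 48 h withdrawal 2 was the highest of its group in Sec14l3, Rasl11b, Tuba8, Slc4a5 and Crebrf and the lowest in Mme. The summed level of 14 type 1 cell markers was 12077 CPM in FZD5 agonist 1, against 8721 and 9065 CPM in the other FZD5 agonist libraries, and 12400 CPM in 48 h withdrawal 2, against 11473 and 11092 CPM in the other 48 h libraries. By group the sum ran from 8721 to 12077 CPM under the FZD5 agonist, 9023 to 9490 CPM under the FZD6 agonist, 10715 to 11043 CPM under WNT, 5008 to 8768 CPM in CHIR, 8080 to 10755 CPM at 24 h and 11092 to 12400 CPM at 48 h. Of those 14 markers, 5 rose for 48 h withdrawal against CHIR in edgeR over 18 libraries and none fell, where 1.1% of all genes were called higher and 1.49% lower, including Hopx at 240 ± 23.8 CPM at 48 h and 51.0 ± 14.5 CPM in CHIR (SD, n = 3 each, adjusted p 0.00678) and Ager at 2679 ± 143 CPM at 48 h and 671 ± 305 CPM in CHIR (adjusted p 0.0301). Of 13 type 2 cell markers, 3 also rose in that comparison (Napsa, S100g and Chil1) and none fell. Over 14 libraries, with 1 CHIR library, 10 of the 14 type 1 markers were called higher and none lower, and 8 of the 13 type 2 markers higher and 3 lower, where 13.6% and 13.9% of all genes were. Whether these markers have a part in the members' levels was not tested.

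FZD6 agonist 1 was the lowest of its group in all members but Cyp4v3, in which it was the highest. Its 11 club and secretory markers summed to 1173 CPM, against 233 and 167 CPM in the other FZD6 agonist libraries. Its haematopoietic markers, nearly all Lyz1, summed to 6164 CPM, against 1490 and 1286 CPM in the other 2 FZD6 agonist libraries, and its 13 type 2 cell markers to 143376 CPM, against 103053 and 107711 CPM. The part of these differences in the members' levels was not tested. Without that library, Rasl11b and Sec14l3 were at 17.2 to 18.5 CPM and 29.2 to 38.7 CPM under the FZD6 agonist, both within the range of the FZD5 agonist.

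Axin2, a direct target of β-catenin and a feedback inhibitor of the pathway, is given as 1 readout of the pathway. Over 18 libraries edgeR did not call it for 48 h withdrawal against CHIR. Another Wnt target, Nkd1, was called higher there. Axin2 was at 4.94, 2.88 and 2.95 CPM under the FZD5 agonist and 1.09, 2.90 and 2.12 CPM under the FZD6 agonist. Under WNT it was at 0.384, 0.373 and 0.238 CPM. It was at 2.38, 9.43 and 1.55 CPM in CHIR, 2.20, 0 and 1.83 CPM at 24 h and 0.413, 0.771 and 0.167 CPM at 48 h. The WNT libraries thus lay within the 48 h range for Axin2 and below all 6 agonist libraries. The log2 difference from WNT was 3.42 ± 1.05 (SE) for the FZD5 agonist and 2.60 ± 1.02 for the FZD6 agonist, with edgeR adjusted p of 1 and 0.99994 over 18 libraries. Over 14 libraries it was 3.41 ± 0.38 with an adjusted p of 3.84e-05 and 2.89 ± 0.41 with 0.000336.

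**Figure D4:**
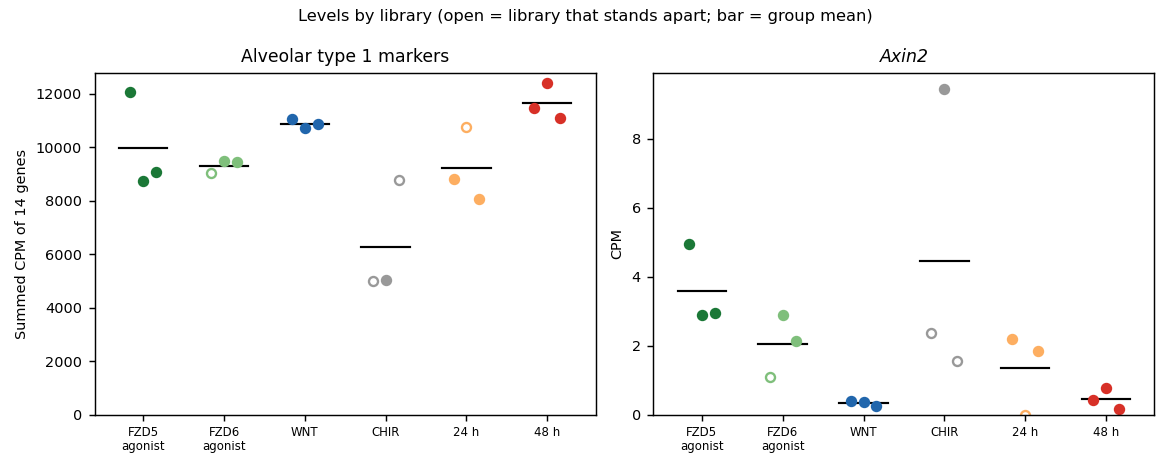
The summed type 1 cell markers and Axin2 (CPM) in every library of the 6 groups (n = 3 each). Axin2 is at 0.238 to 0.384 CPM under WNT and 0.167 to 0.771 CPM after 48 h of withdrawal.

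The 10 lists of genes related to the members by family or regulation held 116 other genes, of which 83 were tested. In edgeR over 18 libraries, 6 of the 83 rose for 48 h withdrawal against CHIR and 1 fell, with a median log2 difference of 0.26, against -0.04 over all genes and a background of 1.1% called higher and 1.49% lower. Those that rose were Sec14l4, Ece1, Rasl12, Car8, Fbxo32 and Txnip, and Car2 fell. Ece1 and Rasl12 were named after their values were seen. Over 14 libraries, with 1 CHIR library, edgeR called 31 of 85 tested genes higher and 10 lower for 48 h against CHIR, where 27.5% of all genes were called (13.6% higher and 13.9% lower). Between ligands, and between ligands and 24 h withdrawal, none of the 83 was called over 18 libraries. Over 14 libraries, 22 of 85 were called higher and 4 lower for WNT against 24 h withdrawal, where 6.75% and 6.85% of genes were. For the FZD5 agonist 9 were higher and 1 lower, against 2.37% and 1.86% of all genes. For the FZD6 agonist 2 were higher and 0 lower, against 0.533% and 0.143% of all genes.

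In the Sec14 list of lipid transfer proteins, 1 of 6 tested genes rose. Sec14l4, a close relative of Sec14l3, was at 204 ± 8.52 CPM at 48 h and 66.0 ± 23.6 CPM in CHIR (SD, n = 3 each), a log2 difference of 1.63 ± 0.24 (SE, edgeR adjusted p 0.00555). Sec14l1, the other abundant member of the list, had a log2 difference of 0.26 ± 0.46 with an adjusted p of 0.840. Among 8 tested cell surface peptidases, Ece1, which processes endothelin precursors, rose by 1.70 ± 0.40 (adjusted p 0.0368), while Cpm (1.15 ± 0.40, adjusted p 0.143) and Enpep (1.002 ± 1.09, adjusted p 0.720) were not called over 18 libraries. Over 14 libraries, with 1 CHIR library, 2 genes of the Sec14 list were called higher, and 4 peptidases, Cpm among them, higher and 1 lower.

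Among 11 tested bicarbonate transporters and carbonic anhydrases, Car8, an inactive relative of carbonic anhydrase, rose and Car2, an active enzyme, fell. Car8 was at 176 ± 17.7 CPM at 48 h and 89.9 ± 22.2 CPM in CHIR (SD, n = 3 each, log2 difference 0.97 ± 0.18, edgeR adjusted p 0.0124). Car2 was at 29.9 ± 4.14 CPM at 48 h and 191 ± 85.7 CPM in CHIR (log2 difference -2.68 ± 0.33, edgeR adjusted p 0.00257). Car8 stood at 109 ± 6.01 CPM under the FZD5 agonist and 107 ± 2.83 CPM under the FZD6 agonist, against 181 ± 12.3 CPM under WNT, and edgeR called it lower than in WNT for both agonists over 14 libraries and for neither over 18. For 48 h against CHIR over 14 libraries, with 1 CHIR library, 2 genes of this list were called higher and 3 lower.

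Of 8 tested Ras-like GTPases, Rasl12 rose by 1.61 ± 0.32 log2 (SE, edgeR adjusted p 0.0161), and Rasl11a, the nearest relative of Rasl11b, was at 67.1 ± 12.2 CPM at 48 h and 35.9 ± 18.04 CPM in CHIR without a call (adjusted p 0.443). Over 14 libraries, with 1 CHIR library, 2 Ras-like GTPases were called higher and 1 lower. None of the 4 tested α-tubulins, 3 BRICHOS genes, 5 CYP4 genes or 9 genes of the CREB3 list was called for 48 h against CHIR over 18 libraries. Over 14 libraries, with 1 CHIR library, 3 of these α-tubulins (Tuba1b, Tuba4a and Tuba1c) were called lower, and 2 BRICHOS genes (Itm2b and Itm2c), 1 CYP4 gene and 3 genes of the CREB3 list were called higher. Itm2b, the relative of Itm2a, was at 765 ± 31.6 CPM at 48 h and 696 ± 112 CPM in CHIR. Tuba4a, at 162 ± 7.95 CPM at 48 h and 203 ± 24.3 CPM in CHIR, had the opposite sign to Tuba8 and was not called over 18 libraries (adjusted p 0.339).

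Of 18 tested genes of the FOXO and starvation list, 2 rose for 48 h against CHIR over 18 libraries and none fell, with a median log2 difference of 0.68, and 11 were called higher and none lower over 14 with 1 CHIR library. Fbxo32, an E3 ligase subunit of protein breakdown, was at 10.3 ± 0.120 CPM at 48 h and 1.49 ± 1.01 CPM in CHIR (SD, n = 3 each, edgeR adjusted p 0.00678). Txnip, an inhibitor of glucose uptake and of thioredoxin, was at 96.7 ± 11.5 CPM at 48 h and 24.3 ± 10.2 CPM in CHIR (edgeR adjusted p 0.0241). None of 11 glucocorticoid-induced genes was called over 18 libraries, and 4 were called higher and 2 lower over 14 with 1 CHIR library. Of 15 tested canonical Wnt targets, 2 rose (Nkd1 and Bambi) and 2 fell (Lgr5 and Sox9) at 48 h against CHIR over 18 libraries, and those named here were chosen after their values were seen. The feedback inhibitor Nkd1 was at 51.9 ± 19.2 CPM at 48 h and 6.73 ± 2.00 CPM in CHIR (SD, n = 3 each, edgeR adjusted p 0.00398). Lgr5, the receptor for R-spondins, was at 0.0372 ± 0.0644 CPM at 48 h and 6.28 ± 4.67 CPM in CHIR (edgeR adjusted p 0.0241). The transcription factor gene Sox9 was at 0.237 ± 0.231 CPM at 48 h and 2.80 ± 2.33 CPM in CHIR (edgeR adjusted p 0.0445). Over 14 libraries, with 1 CHIR library, the same 2 of 17 tested targets were called higher and 7 lower, which were Axin2, Sox9, Tcf7, Lgr5, Rnf43, Znrf3 and Sp5.

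The genes most like each member over the 18 libraries were ranked by the Pearson correlation of log2 CPM among 9974 genes, as a description. They share the libraries, their depth and the same 6 groups. Sec14l3 was most like Dapk2 (0.969) and the type 1 cell collagen gene Col4a3 (0.964). Mme was most like Gsap (0.953) and Txnip (0.935). Rasl11b and Slc4a5 were each most like the other (0.991), followed by Gramd2 (0.979) for Rasl11b and Phactr1 (0.971) for Slc4a5. Tuba8 was most like Sec14l3 (0.929). Itm2a was most like Dcaf11 (0.980), C1galt1c1 (0.947) and Chil1 (0.939). Cyp4v3 was most like Car8 (0.957), and Crebrf was most like Klhl24 (0.940). Among the members themselves the correlation of Itm2a with Cyp4v3 was 0.920, and the lowest was 0.452, between Itm2a and Rasl11b. Over the 14 libraries, Slc4a5 for Rasl11b, Dcaf11 for Itm2a and Klhl24 for Crebrf were again among the 3 genes most like the member, and the other 5 members shared none of their 3.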

How the data were processed

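RNA was isolated with a column kit, and 0.1 µg of total RNA was made into stranded total RNA libraries, per the labels' protocols. Per the submitters' processing notes, reads were aligned with GSNAP to GRCm38. For tool versions, the annotation, the counting step and whether it used strand, nothing was given in the sources used here. The authors deposited whole-number gene counts, not normalised, with a width and an RPKM value per gene. The deposited RPKM values were not tested. Gene identifiers were matched to GENCODE M21, where 52403 of 52636 had a symbol.

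The members, gene lists and tests were chosen with earlier results of these data known. Counts were filtered with filterByExpr by group, which left 16497 genes and removed 36139, scaled by TMM and fitted with edgeR 4.0.16 (glmQLFit with robust estimation, glmQLFTest) in R 4.3.3. All 18 libraries entered 1 fit without covariates, and p-values were Benjamini-Hochberg adjusted over all tested genes with a threshold of 0.05. SE is the log2 difference divided by the square root of F, and intervals are 95%. CPM are on TMM-scaled totals, with SD over 3 libraries. A fit of 14 libraries tested 17433 genes. DESeq2 1.42.0, other scaling and filters, fits of the compared groups and a block for the replicate number were alternatives. So was leaving out each library of the compared groups. The edgeR test was run on simulated counts for the FZD5 agonist against WNT only. Those counts had the same spread for every gene and no library that stood apart. That run therefore does not cover data with such libraries.

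Besides the 8 members, the genes named were the 2 of each related list with the highest level per length, list genes called between ligands or against 24 h withdrawal, and the 3 genes most like each member. Neighbours in the ranking that chose the members and Sftpc, Hopx, Ager, Scgb1a1, Xist and Axin2 were named too. Whether the replicate numbers pair libraries across groups is not stated, and the main fit did not use them.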

Additional observations from a re-analysis of the deposited data

How the results depend on the processing

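With RLE factors, without a filter or with a filter of 1 CPM in 3 libraries, no member was called between ligands. Nor was any of the 5 tested against 24 h withdrawal. The same held when any 1 library of the compared groups was left out. DESeq2 called 2 of 5 for WNT and 1 of 5 for the FZD5 agonist against 24 h withdrawal, and 1 and 3 of 8 for the FZD5 and FZD6 agonist against WNT. Without the 4 libraries that stood apart, edgeR called 3 of 5 for WNT against 24 h withdrawal, and 4 and 3 of 8 for the FZD5 and FZD6 agonist against WNT. The fit of the compared groups alone called 3 and 1 of 8 in the last 2 comparisons. The counts over all genes moved more: 0, 30, 1998 and 2903 for the FZD5 agonist against WNT over 18 libraries with edgeR, with DESeq2, with the compared groups alone and over 14 libraries, 0, 58, 9 and 2057 for the FZD6 agonist against WNT, and 5, 374, 0 and 2371 for WNT against 24 h withdrawal. For the agonists against 24 h withdrawal these 4 counts were 1, 145, 0 and 738 with the FZD5 agonist and 0, 233, 0 and 118 with the FZD6 agonist. Without 24 h withdrawal 3 they were 1139 and 985 in the edgeR fit, and without 24 h withdrawal 1 the FZD6 agonist had 609. WNT against 24 h withdrawal had 21 genes without 24 h withdrawal 2. The cause was not tested. Without a filter the FZD6 agonist against WNT had 4 genes.

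Without the 4 libraries, the log2 difference turned sign for Itm2a at 24 h against CHIR (0.50, with CHIR 2 as the 1 CHIR library), Rasl11b for the FZD6 agonist against WNT (0.12) and Cyp4v3 between the agonists (0.082). With each library of the compared groups left out in turn, some ranges crossed 0. They were -0.38 to 0.88 for Mme and -0.0048 to 0.86 for Slc4a5 in the FZD6 agonist against 24 h withdrawal. For the FZD5 agonist against WNT they were -1.46 to 0.22 for Sec14l3, -0.36 to 1.12 for Rasl11b, -0.87 to 0.018 for Tuba8 and -0.39 to 0.70 for Slc4a5. For the FZD6 agonist against WNT Rasl11b ran from -0.85 to 0.12. Between the agonists they were -0.056 to 1.77 for Sec14l3, -0.017 to 0.87 for Tuba8, -0.093 to 0.14 for Itm2a and -0.12 to 0.079 for Cyp4v3. The differences of Mme, Itm2a and Cyp4v3 from WNT kept their sign under all alternatives run.

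Deviations of libraries with the same number in different groups had a median correlation of -0.0226 over 45 pairs, of which 4 were over 0.1, so the number was used as a block only here. With this replicate block, 0 members were called in any of the 6 comparisons, and the counts over all genes were 5 for WNT and 0 for either agonist against 24 h withdrawal.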

Other observations

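Over the 14 libraries that did not stand apart, related genes were also called between ligands by edgeR, though none was over 18 libraries. For the FZD5 agonist against WNT, 11 of 85 tested genes of the 10 related lists rose and 12 fell, where 16.7% of all genes were called, and for the FZD6 agonist against WNT 9 rose and 10 fell, where 11.8% were. Car2, the active carbonic anhydrase, rose by 1.61 ± 0.17 log2 (SE) with the FZD5 agonist and by 1.87 ± 0.18 with the FZD6 agonist, opposite in sign to Car8 at -0.73 ± 0.08 and -0.78 ± 0.09. It averaged 96.1 ± 3.41 CPM with the FZD5 agonist, 126 ± 17.4 CPM with the FZD6 agonist and 31.5 ± 9.09 CPM with WNT (SD, n = 3 each).

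Of 17 canonical Wnt targets tested over 14 libraries, 8 rose for each agonist against WNT. With the FZD5 agonist 3 fell, and with the FZD6 agonist 2. Over all genes, 8.74% were called higher and 7.92% lower for the FZD5 agonist, and 6.61% and 5.19% for the FZD6 agonist. The genes named from the list of Wnt targets were chosen after their values were seen. Sox9 rose by 2.60 ± 0.44 log2 (SE, adjusted p 0.00153) with the FZD5 agonist and by 3.18 ± 0.46 (adjusted p 0.000792) with the FZD6 agonist. Bambi, an inhibitor of TGF-β signalling, fell by 0.95 with the FZD5 agonist and by 0.89 with the FZD6 agonist. In the list of FOXO and starvation genes, 8 of 18 rose for WNT against 24 h withdrawal over 14 libraries and none fell. Over all genes, 6.75% were called higher and 6.85% lower in that comparison. Among the 8 was Fbxo32, which rose by 1.22 ± 0.26 log2 (SE, edgeR adjusted p 0.00673).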
